A study of Mus musculus with 8 samples.

Results

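The genes described here are 9 ligand-activated transcription factors of hepatocytes that sense drugs, hormones and metabolites: Nr1i2, Nr1i3, Ahr, Rxra, Nr3c1, Thrb, Esr1, Nr5a2 and Rora. They were listed by symbol, and each was measured through the probe set annotated to that symbol alone. All 9 of the 9 listed genes were found, out of 19938 genes measured, and each had exactly 1 such probe set. None of the 9 receptor genes passed the test between transgenic and control liver after adjustment over all genes, although Nr1i3 and Nr1i2 had their lowest values in the transgenic livers without overlap.

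The transgenic group held 4 livers of mice that express IKK2, a kinase of the NF-kB pathway, in a constitutively active form from the LAP promoter, and the control group held 4 livers of control animals. Every mouse was 4 weeks old. The stock mixed C57BL/6 with NMRI and had been crossed back to C57BL/6 no fewer than 4 times. The LAP promoter drives expression in hepatocytes, while the RNA came from the whole organ. The labels do not give the sex of the animals, and Xist, the transcript of the inactive X chromosome, read between 2.95 and 3.39 on all 8 arrays.

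PXR (Nr1i2) and CAR (Nr1i3) are nuclear receptors of the liver that respond to drugs, bile acids and other foreign or potentially harmful molecules. Each pairs with RXR-alpha (Rxra) on DNA and drives genes for cytochromes P450, conjugating enzymes and transporters. The aryl hydrocarbon receptor (Ahr) is not a nuclear receptor by structure but a basic helix-loop-helix PAS protein, which pairs with ARNT and induces Cyp1 enzymes. The glucocorticoid receptor (Nr3c1), the thyroid hormone receptor beta (Thrb) and the oestrogen receptor alpha (Esr1) carry hormone signals to hepatocyte genes. LRH-1 (Nr5a2) regulates genes of bile acid and cholesterol handling, and ROR-alpha (Rora) regulates lipid and clock genes. All of them can change in activity through their ligands, which transcript levels do not show.

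Promoter sequences are shown for Nr1i3 and Nr1i2 because these receptors had the most negative differences. The windows come from RefSeq on GRCm38.p6 and run 5′ to 3′ from 250 bases before an annotated transcription start through the first 50 transcribed bases. The Nr1i3 window lies on the plus strand at chr1:171213720-171214019 and the Nr1i2 window on the minus strand at chr16:38294775-38295074. Capitals mark a match to the glucocorticoid receptor half-site AGAACA.
Nr1i3 promoter: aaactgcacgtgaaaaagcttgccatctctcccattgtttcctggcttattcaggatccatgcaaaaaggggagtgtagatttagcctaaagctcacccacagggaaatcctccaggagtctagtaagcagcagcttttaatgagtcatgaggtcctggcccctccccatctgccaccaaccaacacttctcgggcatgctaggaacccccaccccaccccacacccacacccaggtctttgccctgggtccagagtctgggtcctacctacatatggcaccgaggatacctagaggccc
Nr1i2 promoter: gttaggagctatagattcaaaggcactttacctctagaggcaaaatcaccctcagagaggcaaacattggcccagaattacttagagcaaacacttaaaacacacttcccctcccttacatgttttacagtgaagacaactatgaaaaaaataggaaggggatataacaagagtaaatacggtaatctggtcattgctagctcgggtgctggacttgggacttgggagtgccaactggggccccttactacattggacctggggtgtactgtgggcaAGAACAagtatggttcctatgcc
In the Nr1i2 window the match begins at transcribed base 28. The Nr1i3 window held no match. Both strands were searched for AGAACA, for the nuclear receptor half-site AGGTCA, for the AHR core TNGCGTG and for the NF-kB consensus by name. Among all 32851 mouse promoter windows of the same length, 19% held AGAACA, 16.3% AGGTCA, 5.07% TNGCGTG and 8.46% the NF-kB consensus. The search of receptor genes covered 11 RefSeq windows of 7 receptors, and 0 of these 11 contained the NF-kB consensus. Nr3c1 was left out of this search, and Ahr had no window in the set used. AGGTCA was found in windows of Nr5a2, Rxra and Thrb, and AGAACA in windows of Nr5a2, Thrb and Nr1i2. A match describes letters in a window and not a bound site, and a window without a match is silent on binding elsewhere.

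Expression was read as 1 log2 value per probe set and array, with array medians between 4.88 and 5.08. Ikbkb, the gene of IKK2, served as the check of the labels: it averaged 8.71 in transgenic livers and 7.71 in control livers and was called higher (adjusted p = 0.0185), though whether its probe set reads the transgene is not given in the sources used. That call was lost without transgenic replicate 1 and without each of control replicates 1 to 4, with an adjusted p between 0.0546 and 0.0691. Transgenic replicate 2 fitted the group model least well and had the lowest array weight, 0.278. The 4 arrays of a group are labelled as biological replicates, so the p-values weigh each difference against the variation from animal to animal.

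The receptors were compared between transgenic and control livers with limma, and a gene was called at an adjusted p under 0.05. No receptor was called: 0 of 9, where 6.34% of all genes were called (4.67% higher and 1.67% lower). Of the 9 log2 differences, 7 were negative and 2 positive, and 61.6% of all genes had a negative one. The median log2 fold change of the receptors was -0.12, against -0.07 over all genes. At an unadjusted p under 0.05 there were 2 receptors, Nr1i2 and Nr1i3, both lower, where 33.6% of all genes met that limit and 18.3% met it with a lower value. The same 2 receptors were the ones whose 4 transgenic values all lay below the 4 control values, as 22.4% of genes did not overlap in either direction and 11.2% lay lower in the transgenic livers. The other 7 receptors overlapped between groups. With 9 genes, nothing particular to the receptors is read from a count of 2.

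CAR had the most negative difference of the set. Nr1i3 (probe set 10351533) had log2 values of 7.17, 6.49, 7.96 and 8.20 in transgenic replicates 1 to 4, against 8.54, 8.72, 8.30 and 8.78 in control replicates 1 to 4. Transgenic replicates 1 and 2 were far below all controls, while transgenic replicates 3 and 4 came closer to the lowest control without reaching it. The mean was 7.46 ± 0.78 in transgenic livers and 8.59 ± 0.21 in control livers (SD, n = 4 each). The log2 difference of -1.13 (SE 0.32, 95% interval -1.85 to -0.41) corresponds to 45.7% of the control level. It missed the threshold after adjustment (adjusted p = 0.0624), while the interval, which is not adjusted for the number of genes, leaves out 0. Of all genes, 0.331% had a more negative difference than Nr1i3, a rank that takes no account of each gene's error. In bulk liver RNA, fewer cells of a type and less RNA per cell cannot be told apart.

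PXR differed by less and varied less among the transgenic livers. Nr1i2 (probe set 10439411) had log2 values of 8.32, 8.15, 8.41 and 8.25 in transgenic replicates 1 to 4, against 8.65, 9.07, 8.51 and 8.76 in control replicates 1 to 4. The transgenic values were tightly grouped and all below the controls, but the highest of them came close to control replicate 3. The means were 8.28 ± 0.11 in transgenic and 8.75 ± 0.24 in control livers (SD, n = 4 each). The log2 difference was -0.46 (SE 0.12, 95% interval -0.74 to -0.19), or 72.5% of the control level, with an adjusted p of 0.0540. A more negative difference was found in 3.75% of all genes.

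**Figure D1:**
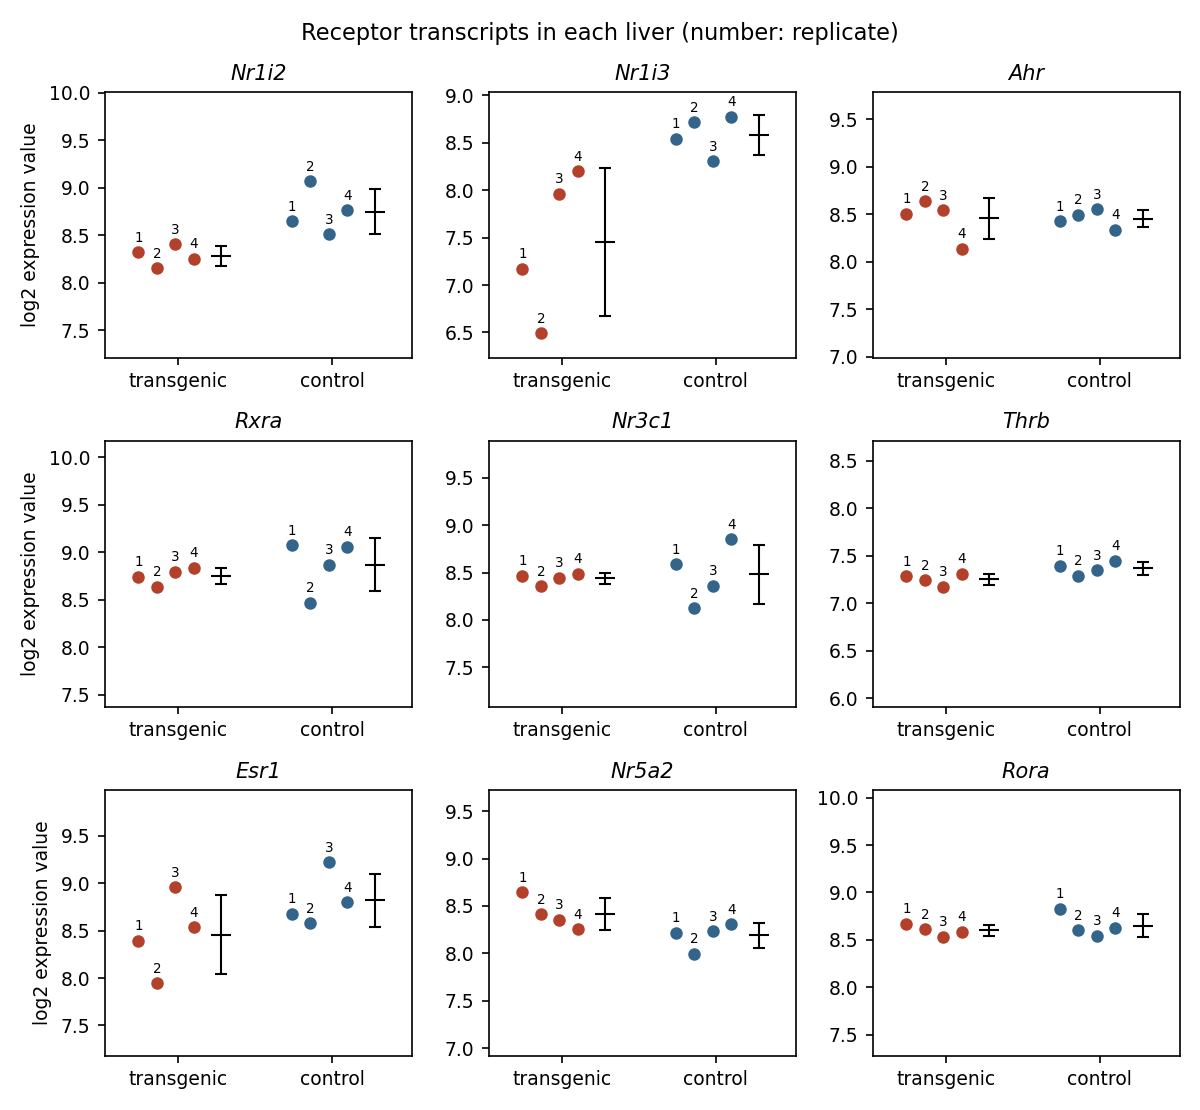
Log2 expression values of the 9 receptor genes in each liver, 1 panel per gene, with transgenic livers in red on the left and control livers in blue on the right; numbers are replicates, and black bars give the mean ± SD (n = 4 each). Nr1i2 and Nr1i3 do not overlap between the groups, and Nr1i3 is lowest in transgenic replicates 1 and 2, at 7.17 and 6.49; the vertical axes cover different ranges.

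The difference in the aryl hydrocarbon receptor was the closest to 0 of the 9. Ahr (probe set 10400006) read 8.50, 8.64, 8.54 and 8.14 in transgenic livers, against 8.43, 8.49, 8.55 and 8.34 in control livers. The groups overlapped, with both the highest and the lowest value in transgenic livers, replicates 2 and 4. Its means were 8.46 ± 0.22 and 8.45 ± 0.09 in transgenic and control livers, and the 95% interval of the log2 difference ran from -0.25 to 0.26 (adjusted p = 0.987). The sign of so small a difference turned with the setting, to -0.12 after quantile normalization.

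RXR-alpha, the shared partner of PXR and CAR, was measured at 8.74, 8.64, 8.79 and 8.84 in transgenic livers, against 9.07, 8.47, 8.87 and 9.06 in control livers (Rxra, probe set 10470446). The transgenic values lay inside the range of the controls, whose replicate 2 was the lowest of all 8 livers. The log2 difference was -0.12 (SE 0.13, 95% interval -0.42 to 0.18, adjusted p = 0.542).

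Among the hormone receptors, Esr1 had the largest difference and the widest error. Esr1 (probe set 10367600) read 8.40, 7.94, 8.96 and 8.53 in transgenic livers, against 8.68, 8.57, 9.22 and 8.80 in control livers. Transgenic replicate 2 was the lowest and control replicate 3 the highest, but transgenic replicate 3 exceeded 3 of the 4 controls. The log2 difference was -0.36 (SE 0.21, 95% interval -0.83 to 0.11, adjusted p = 0.241), which is 77.9% of the control level, with an interval that includes 0. Its size moved with single livers and with weights: it was -0.19 without transgenic replicate 2, -0.23 without control replicate 3, -0.17 with array weights and -0.53 without transgenic replicate 3. In both groups replicate 3 was the highest and replicate 2 the lowest. With the replicate block the difference stayed at -0.36, with a smaller error (SE 0.10, adjusted p = 0.0869), and was not called.

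The glucocorticoid receptor had a difference near 0. Nr3c1 (probe set 10458569) read 8.47, 8.35, 8.45 and 8.49 in transgenic livers, against 8.59, 8.12, 8.36 and 8.85 in control livers. The transgenic livers were nearly alike (SD 0.06), whereas the controls held both the lowest and the highest value (SD 0.31). Its log2 difference of -0.04 had a 95% interval from -0.36 to 0.28 (adjusted p = 0.847), and its sign turned to 0.04 when each array was centred on its median.

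Thyroid hormone receptor beta varied little in either group. Thrb (probe set 10412882) read 7.29, 7.24, 7.17 and 7.31 in transgenic livers, against 7.39, 7.29, 7.35 and 7.45 in control livers. Control replicate 2 was below transgenic replicate 4 and all but equal to transgenic replicate 1, and the remaining controls were above all transgenic livers. The log2 difference was -0.12 (SE 0.08, 95% interval -0.29 to 0.05, adjusted p = 0.290). After quantile normalization it was -0.26 (SE 0.08, adjusted p = 0.0588), still not called.

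Of the 2 positive differences, that of LRH-1 was the larger. Nr5a2 (probe set 10358210) read 8.65, 8.41, 8.35 and 8.25 in transgenic livers, against 8.22, 7.998, 8.23 and 8.31 in control livers. Transgenic replicates 1 to 3 exceeded all controls, and transgenic replicate 4 lay within their range. The log2 difference was 0.23 (SE 0.11, 95% interval -0.02 to 0.47, adjusted p = 0.170).

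ROR-alpha, which can bind its DNA element without a partner, did not differ beyond its spread. Rora (probe set 10586700) read 8.67, 8.61, 8.53 and 8.59 in transgenic livers, against 8.83, 8.60, 8.54 and 8.63 in control livers. Only control replicate 1 stood above the rest. The log2 difference was -0.05 (SE 0.09, 95% interval -0.24 to 0.14, adjusted p = 0.689), and it turned to 0.03 after centring of the arrays.

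**Figure D2:**
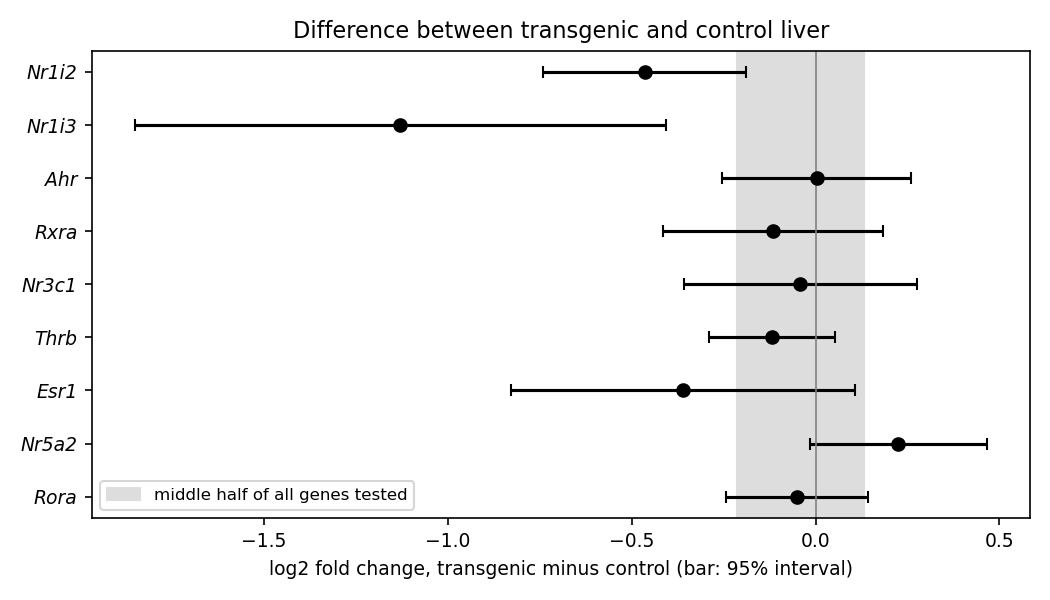
Log2 fold change of each receptor gene, transgenic minus control, as a point with its 95% interval as a bar (4 against 4 livers); the grey band covers the middle range of all genes tested, from -0.21 to 0.13. The intervals of Nr1i2 and Nr1i3 lie wholly below 0, and those of 6 other receptors stay within 0.5 of 0.

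For 6 receptors (Ahr, Rxra, Nr3c1, Thrb, Nr5a2 and Rora) the 95% interval of the reported fit stayed within 0.5 of 0 on the log2 scale. A difference beyond 0.5 in either direction thus lies outside those intervals. The median width of the interval on either side was 0.275 over the 9 receptors. Variation within a group went in no shared direction: 4 receptors had the larger SD among transgenic livers and 5 among control livers. Transgenic replicate 2 was the lowest of all 8 livers for 3 receptors (Nr1i2, Nr1i3 and Esr1), and so was control replicate 2 for another 3 (Rxra, Nr3c1 and Nr5a2). Control replicate 4 was the highest of all for 3 receptors.

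The calls for PXR and CAR sat near the threshold and moved across it. In 17 alternative settings the Nr1i2 difference was always negative, between -0.58 and -0.36, and was called in 5: quantile normalization (adjusted p = 0.0379), array weights (0.0369), dropping the dimmest 30% of probe sets (0.0471), dropping the dimmest 50% (0.0438) and leaving out transgenic replicate 3 (0.0492). Nr1i3 was negative in all 17, between -1.38 and -0.79, and was called in 3: without the dimmest 50% of probe sets (0.0495), without transgenic replicate 3 (0.0461) and without transgenic replicate 4 (0.0232). Without transgenic replicate 2, the lowest liver, the Nr1i3 difference was -0.81 (adjusted p = 0.0608). The other 7 receptors were called in 0 of the 17 settings, where the smallest adjusted p was that of Thrb after quantile normalization, 0.0588. The sizes of these 7 moved as well, between -0.25 and -0.04 for Rxra, between -0.26 and -0.04 for Thrb and between 0.09 and 0.31 for Nr5a2.

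**Figure D3:**
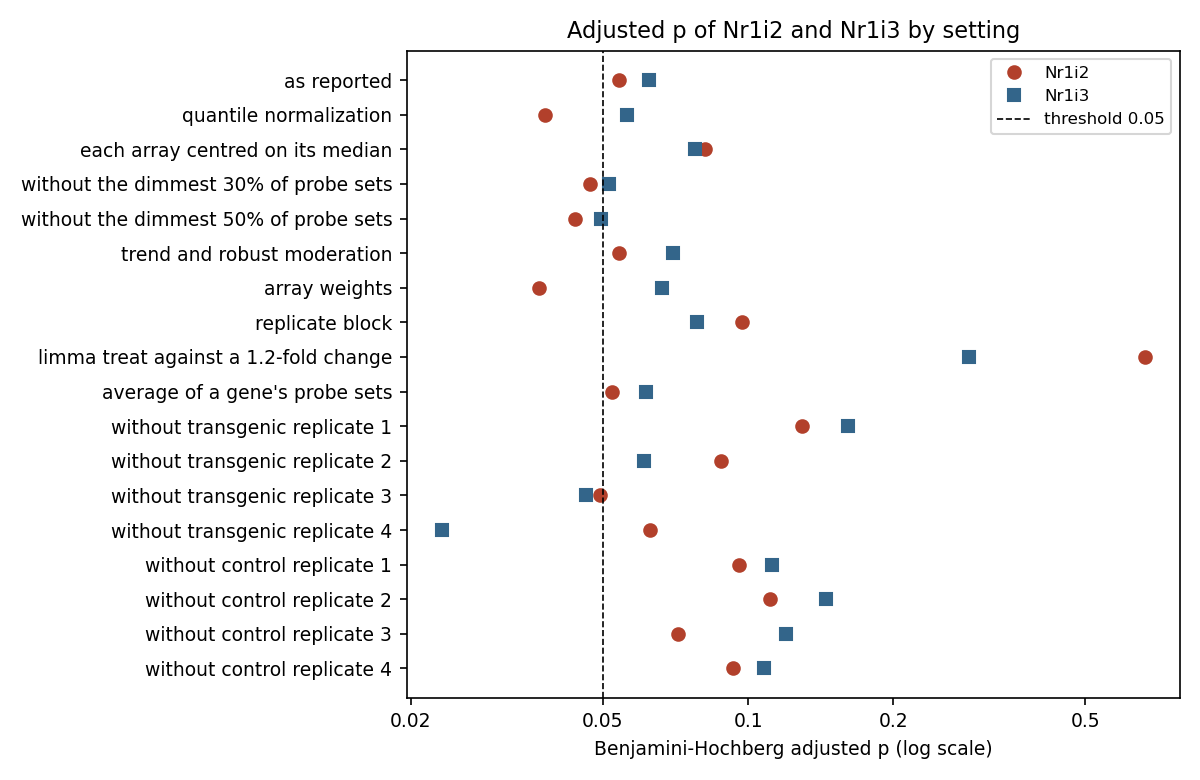
Benjamini-Hochberg adjusted p of Nr1i2 (red circles) and Nr1i3 (blue squares) in the reported fit and in each of 17 alternatives, on a log scale, with the threshold of 0.05 dashed. Nr1i2 lies left of the line in 5 alternatives and Nr1i3 in 3, while the reported values, 0.0540 and 0.0624, lie just right of it.

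To place these profiles among other transcripts, the 3 genes with the highest Pearson r across the 8 arrays were looked up for the 3 receptors with the smallest p, as a description only, since all values share arrays and groups. For Nr1i3 they were Sult2a8, a sulfotransferase (r = 0.995), Acat1, the mitochondrial acetyl-CoA acetyltransferase (0.993), and Timd2 (0.993). Sult2a8 read 7.92, 6.03, 9.45 and 10.21 in transgenic replicates 1 to 4, against 11.19, 11.11, 10.57 and 11.27 in control replicates 1 to 4. Its order of livers thus matched that of Nr1i3 among the transgenic livers, with a log2 difference of -2.63 that was not called (adjusted p = 0.0601). For Nr1i2 the closest were Nop16 (0.986), Jtb (0.980) and Tmem170, and for Nr5a2 they were Ints4 (0.976), Dag1 (0.975) and Man1a (0.971). None of these 9 genes was called.

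Relatives of the receptors were called at a share near that of all genes (5.41%, beside 6.34%). Of 37 measured other nuclear receptors, 1 rose, 1 fell and 35 did not pass (median log2 fold change -0.12). The one that fell was Nr0b2, which encodes SHP, a receptor without a DNA-binding domain that represses LRH-1 and other nuclear receptors. Nr0b2 read 7.05, 7.13, 6.44 and 7.32 in transgenic livers, against 8.30, 8.04, 7.70 and 7.54 in control livers, without overlap (log2 fold change -0.91, SE 0.21, adjusted p = 0.0403). The retinoic acid receptor beta, Rarb, rose by 0.49 (adjusted p = 0.0451). Nr0b2 lost its call without transgenic replicate 1 and without each of the 4 controls (adjusted p between 0.0607 and 0.112), and Rarb without transgenic replicates 1 to 3 and each control (0.0587 to 0.113). Nr0b2 also lost it with centred arrays (0.0679), and Rarb after quantile normalization (0.0793) and with the replicate block (0.0587).

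Of 21 measured dimer partners and cofactors, 2 rose, 1 fell and 18 did not pass (14.3% called, median 0.17). Fkbp5, a chaperone partner of the glucocorticoid receptor and itself a target of it, rose by 0.64 (adjusted p = 0.0422). Ep300, a histone acetyltransferase recruited by nuclear receptors, rose by 0.57 (0.0468). Ppargc1b, a coactivator of nuclear receptors in oxidative metabolism, had a log2 fold change of -0.47 (0.0250). All 3 calls were lost without transgenic replicate 1 and without control replicates 1, 2 or 4, Fkbp5 and Ep300 also without control replicate 3, and Fkbp5 without transgenic replicate 3, with an adjusted p between 0.0544 and 0.122. They were also lost when each array was centred on its median (Fkbp5 0.0515, Ep300 0.0624, Ppargc1b 0.0574) and with the replicate block (0.0686, 0.087 and 0.0576), and Fkbp5 after quantile normalization (0.0523).

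Target genes of PXR and CAR moved in no single direction. Of 29 measured, 2 rose and 0 fell, with 27 not called (median 0.05). Alas1, the first enzyme of haem synthesis, rose by 1.55 (SE 0.39, adjusted p = 0.0487), with control replicate 3 inside the range of the transgenic livers, and Abcb1a, a drug exporter, rose by 1.14 (SE 0.24, adjusted p = 0.0323). Both calls were lost without transgenic replicate 1 and without control replicates 1, 2 or 4, and that of Alas1 also without transgenic replicate 2 (adjusted p between 0.0724 and 0.136). Alas1 further lost its call with centred arrays (0.0561), with trend and robust moderation (0.056) and with the replicate block (0.0552). Across the 17 alternatives, 0 to 4 of these targets were called higher and 0 to 2 lower.

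The Cyp2b and Cyp2c enzymes among these targets, singled out after their values were seen and so given as a description only, were mostly lower in the transgenic mean. Of 9 such genes 8 had a negative difference (median -1.30) and 0 were called. Cyp2c54 read 7.65, 6.36, 9.48 and 10.54 in transgenic replicates 1 to 4, against 10.99, 10.61, 10.60 and 11.14 in control replicates 1 to 4 (log2 difference -2.33, SE 0.74, adjusted p = 0.0773). As for Nr1i3, transgenic replicates 1 and 2 lay below replicates 3 and 4. That order held in 7 of these 9 genes and in 3 of 4 Cyp3a genes, but in 3 of the 16 remaining targets, which makes 13 of 29 (44.8%) over the whole list, beside 34% of all genes. The order was not particular to these targets: the mean level of 17 hepatocyte markers, given below, had it too. Ikbkb split the same livers in the opposite direction. It read 8.995 and 9.093 in transgenic replicates 1 and 2, against 8.383 and 8.376 in replicates 3 and 4. The measured NF-kB feedback genes, described below, split in the direction of Ikbkb, except Socs3. Whether these splits are linked to that of Nr1i3 was not tested. Cyp2b10, the enzyme most used as a readout of CAR, read 4.84, 6.15, 7.30 and 7.33 in transgenic livers, against 6.53, 8.48, 7.89 and 6.58 in control livers, with overlap (log2 difference -0.96, adjusted p = 0.271). Cyp3a11, the main PXR target, had a log2 difference of 0.14 (adjusted p = 0.295). These enzymes are close paralogs within each family, and probes of one may also read another, which was not tested.

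**Figure D4:**
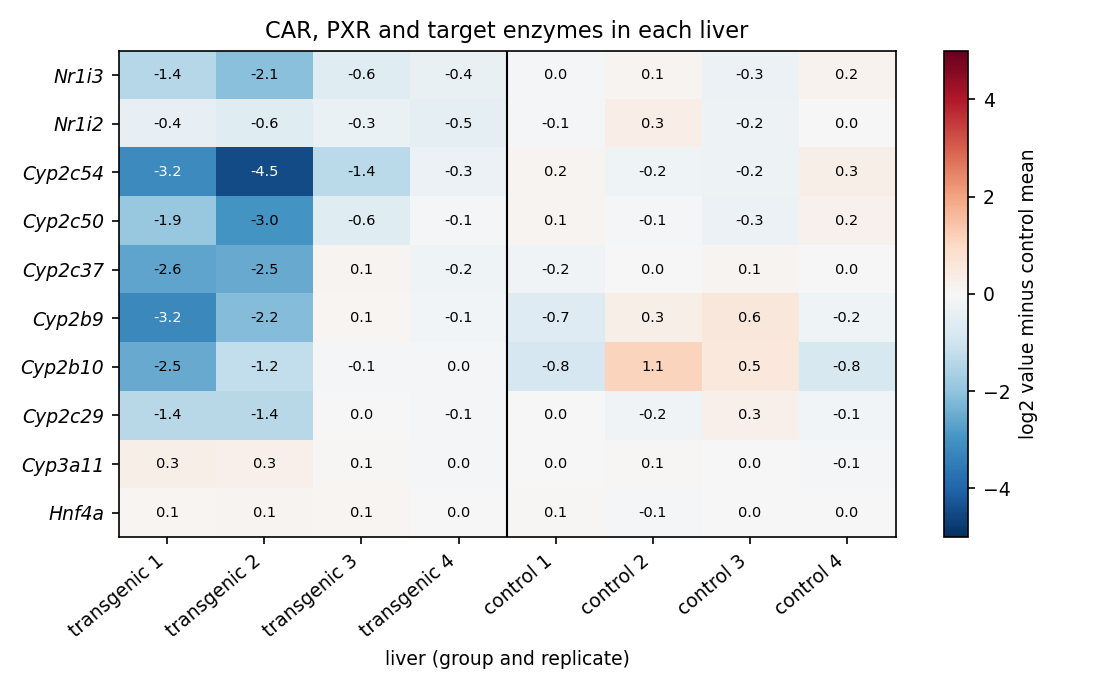
Log2 value of CAR, PXR, target enzymes and Hnf4a (a hepatocyte factor) in each liver minus the mean of the 4 controls; columns are the 4 transgenic livers and then the 4 control livers, and colour and printed number give the difference. Transgenic replicates 1 and 2 are lowest for Nr1i3, Cyp2c54 and Cyp2c50, while Cyp3a11 and Hnf4a stay near 0; the enzymes were chosen after their values were seen.

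AHR targets had 1 rise among 10 measured and 0 falls (median 0.16). The gene that rose was Cyp1b1, whose log2 fold change was 1.89 (SE 0.38, adjusted p = 0.0257), with values of 6.67, 6.07, 5.20 and 7.37 in transgenic livers, against 4.43, 4.13, 4.57 and 4.61 in control livers. The groups did not overlap, but the call was lost without transgenic replicate 1 and each of the 4 controls (adjusted p between 0.0637 and 0.0921). Cyp1a1, Cyp1a2 and the AHR repressor Ahrr were not called, with log2 differences of 0.22, -0.51 and -0.08. Of the 10 targets, 3 lay higher without overlap and 1 lower, beside 22.4% of all genes in either direction. Besides Cyp1b1 these were Nfe2l2 (0.95, adjusted p = 0.0538), Nqo1 (0.56, 0.0842) and, lower, Aldh3a1 (-0.37, 0.0708), all uncalled.

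Of 18 measured glucocorticoid receptor targets 2 rose, Lcn2 by 4.21 (adjusted p = 0.000187) and Fkbp5 as given above, and 0 fell (median 0.10). Lcn2, which encodes lipocalin-2, is also an NF-kB target, and its call held in all 17 settings. Among 15 thyroid hormone receptor targets 0 rose and 1 fell, Me1, the malic enzyme that supplies NADPH for lipid synthesis (log2 fold change -1.13, adjusted p = 0.0393, median of the list -0.14). Among 12 LRH-1 targets 0 rose and 2 fell, Nr0b2 and Abcg5, a subunit of the biliary sterol exporter (-0.72, adjusted p = 0.0370, median -0.13).

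Among 20 ROR targets and clock genes 1 rose and 2 fell (median -0.12). Sult1e1, the sulfotransferase that inactivates oestrogen, read 6.94, 6.15, 6.89 and 6.76 in transgenic livers, against 3.30, 4.02, 3.83 and 3.69 in control livers. It rose by 2.97 (SE 0.20, adjusted p = 0.000206) and was called in all 16 alternatives in which it was tested, while Rora and Esr1 themselves were not called. Apoa5, a regulator of plasma triglyceride, fell by 0.86 (adjusted p = 0.0438) and Insig2, a brake on sterol synthesis, fell by 0.58 (0.0367). Among 11 oestrogen receptor targets 1 rose, again Sult1e1, and 1 fell, Igf1, the main circulating growth factor from liver (-0.56, adjusted p = 0.0486, median -0.19). Me1, Abcg5, Apoa5, Insig2 and Igf1 lost their calls without transgenic replicate 1 and without control replicates 1, 2 or 4. Me1, Apoa5 and Igf1 also lost them without control replicate 3, and Igf1 without transgenic replicate 2, with an adjusted p between 0.066 and 0.135. All 5 also lost them with centred arrays (0.0516 to 0.0737), and Me1, Abcg5 and Apoa5 with the replicate block (0.0594, 0.068 and 0.0535).

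**Figure D5:**
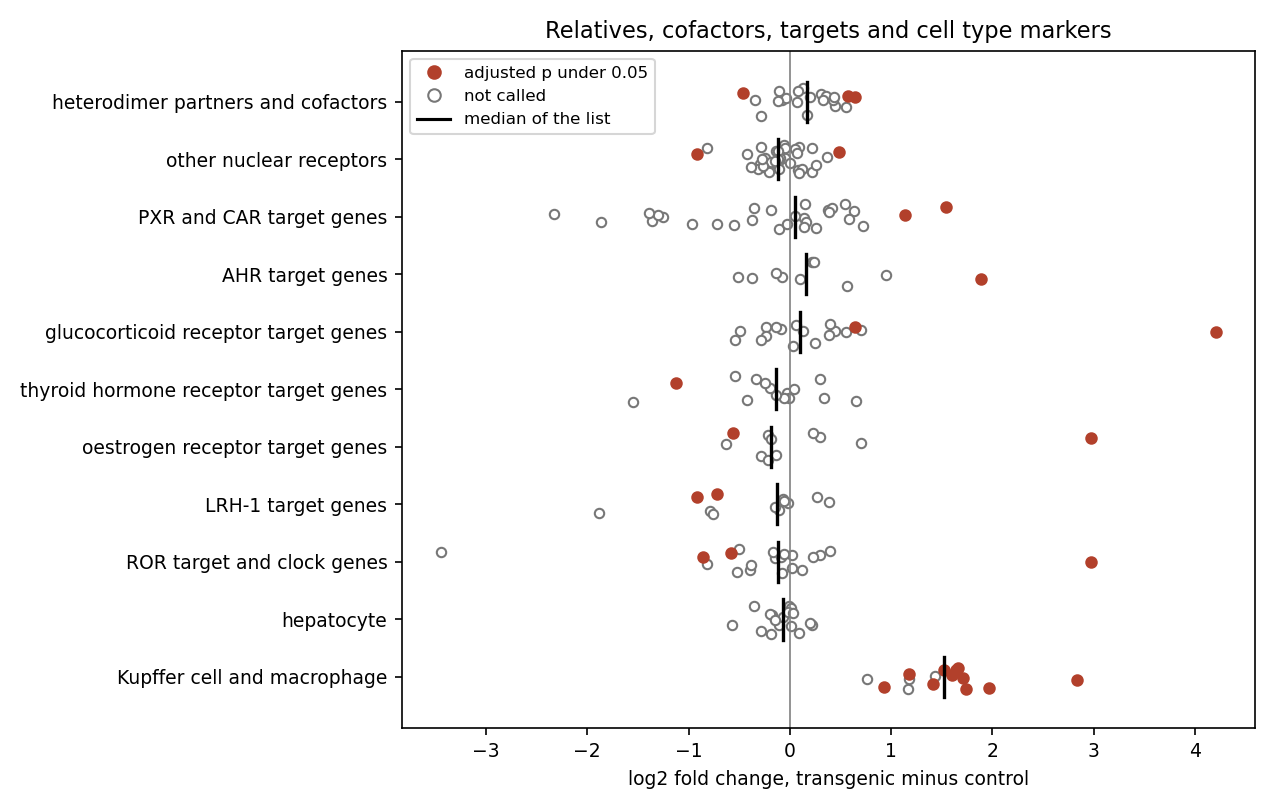
Log2 fold change (transgenic minus control) of each measured gene in the lists of partners, relatives, targets and 2 cell types; filled red points have an adjusted p under 0.05, open points do not, and black lines are list medians. Target lists centre near 0, from a median of -0.19 to one of 0.16, with single genes far out, whereas the macrophage list is centred at 1.53.

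Signs of other cells moved with the genotype, and their part in the receptor values was not tested. Of 15 Kupffer cell and macrophage markers 11 rose and 0 fell (median 1.53, Lyz2 and Fcgr1 among them), and their mean level was 8.79 to 10.12 in transgenic livers, against 7.59 to 8.04 in control livers. Of 8 monocyte markers 6 rose (median 2.18, such as Ccr2 and Itgax), of 11 T and NK cell markers 3 (0.71, Cd3g and Nkg7), of 11 stellate cell markers 5 (0.55, Hgf and Col1a1) and of 10 endothelial markers 1, Stab1 (0.03). In the B cell, neutrophil and bile duct lists, with 6, 9 and 6 measured genes, 0 were called, and 0 markers fell in any list. Of 13 NF-kB feedback genes 10 rose (median 1.49), Cxcl10 by 3.89 and Ccl2 by 3.36. Over the 17 alternatives the counts of called markers ran from 6 to 14 for macrophages, 4 to 7 for monocytes, 1 to 5 for T and NK cells, 0 to 6 for stellate cells and 7 to 12 for the feedback genes. With 1 array left out, the calls of Fcgr1, Hgf and Col1a1 were lost without control replicates 2 or 3, those of Nkg7 and Stab1 without control replicates 2, 3 or 4, and those of Hgf, Col1a1 and Stab1 without transgenic replicate 1 (adjusted p between 0.0514 and 0.0798). Stab1 also lost its call with the replicate block (0.0552).

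Hepatocyte markers were not called in either direction in the reported fit: 0 of 17, with a median of -0.07. Over the 17 alternatives, 0 to 1 of them were called lower and 0 higher. Their mean level was 11.97, 11.85, 12.08 and 12.13 in transgenic replicates 1 to 4, against 12.13, 12.04, 12.13 and 12.10 in control replicates 1 to 4. Transgenic replicates 1 and 2, the livers lowest in Nr1i3, were thus also the lowest in hepatocyte markers. Whether the 2 are linked was not tested. Macrophage markers averaged 9.10, 10.12, 9.15 and 8.79 in transgenic replicates 1 to 4. Replicate 2, lowest in Nr1i3, was highest in them, but replicate 1, the next lowest in Nr1i3, was below replicate 3.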

How the data were processed

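Liver RNA of 4 transgenic and 4 control mice was hybridised to 8 Affymetrix whole-transcript arrays. Per the submitters' processing notes, the authors used Affymetrix Expression Console to make the deposited log2 values. Version, background correction and normalization are not given in the sources used, and base 2 was read from the values, whose maximum of 14.1 exceeds the natural logarithm of a 16-bit reading (11.1). Scanner files and detection calls were not used, so no probe set was judged against background. Precision is limited by having 8 arrays.

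Among 35556 probe sets, 21789 carry a unique gene symbol, 1621 carry several and 12146 none. Limma 3.58.1 in R 4.3.3 (with data.table, version 1.17.8) was fitted to all 21789, with the group as its only term and empirical Bayes moderation (prior degrees of freedom 3.77). Tests were two-sided with Benjamini-Hochberg adjustment over these probe sets. A gene counts through its brightest probe set, which gave 19938 genes. Each log2 fold change is the transgenic mean minus the control mean, with the standard error (SE) from limma. The steps were tested on simulated data.

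The receptors and lists were chosen with earlier results of these data known. The naming rule took all receptors, up to 2 called genes per list and direction with the largest changes, or else the gene with the smallest p, every called relative or cofactor, Ikbkb, Xist, and the 3 genes most like each of 3 receptors by Pearson r, among genes above the median level. Cyp2c54, Cyp2c50, Cyp2b10, Cyp3a11, the other enzymes plotted with them, Hnf4a, Cyp1a1, Cyp1a2, Ahrr, Nr1d1 and Elovl3 were chosen after their values were seen. There were 17 alternatives: quantile normalization, centring, 2 filters on dim probe sets, trend and robust moderation, array weights, the replicate block, limma's treat, averaged probe sets and each of 8 arrays left out.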

Additional observations from a re-analysis of the deposited data

Results flagged for a closer look

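Among 82 groups of 4 values tested for a single distant sample, 1 was singled out, where chance gives about 1 in 20. It was Cxcr2, a neutrophil receptor, at 4.38 in transgenic replicate 2, while the other transgenic livers read between 3.23 and 3.41. None of the 18 groups of receptor values was singled out (0 of 18).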

How the results depend on the processing

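The count of receptors called lower, 0 as reported, was 1 after quantile normalization, without the dimmest 30% of probe sets and with array weights, 2 without the dimmest 50%, and 0 to 2 when each array was left out. The share of all genes called, 6.34% as reported, was 8.55% after quantile normalization and 7.68% with array weights. Of the genes kept, it was 11.2% without the dimmest 30% (429 lower) and 14.5% without the dimmest 50% (385 lower). With 1 array left out it ran from 1.01% to 12.9%. The count of receptors called higher was 0 in all 17 alternatives. Over all genes the reported 932 higher and 333 lower became 618 and 97 with centred arrays and 271 and 8 with limma's treat. The lower genes became 638 after quantile normalization and 501 with array weights. With 1 array left out, higher genes ranged from 192 to 1636 and lower genes from 3 to 944. The share of higher genes among calls was 73.7%, against 86.4% with centring and 62.6% with quantile normalization, and the receptors' 7 negative and 2 positive signs became 5 and 4 with centring, and 8 and 1 with quantile normalization. Signs turned only for 3 uncalled receptors: Ahr was -0.12 after quantile normalization, -0.0461 with array weights and -0.0582 to 0.108 with 1 array left out. Rora was 0.0295 with centring and -0.0860 to 0.00893 with 1 array left out, and Nr3c1 was 0.0387 and -0.160 to 0.0825. The cause of these shifts was not tested, and with no background measured the effect of dim signal is not known.

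Replicate numbers are shared between groups, and the labels do not say whether same-numbered livers were paired. Same-numbered deviations correlated from -0.129 to 0.256, and 2 of 4 livers correlated best with their own number. Such correlations over all probe sets cannot decide whether the livers were paired. The fit with the replicate block called 670 genes higher, 174 lower and 0 receptors. Limma's treat also ended the calls of the named genes other than Lcn2, Sult1e1, Cxcl10, Ccl2, Lyz2, Fcgr1, Ccr2, Itgax, Cd3g and Nkg7 (adjusted p between 0.0611 and 0.544). An alternative pseudocount did not apply to log2 values.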

Other observations

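The clock receptor Nr1d1 was not called (log2 difference -0.82, adjusted p = 0.445). It read 9.07, 5.80, 7.07 and 8.58 in transgenic replicates 1 to 4, against 9.72, 7.10, 7.75 and 9.24 in control replicates 1 to 4. Replicates 1 and 4 were the high livers of both groups, and the groups overlapped. Elovl3, a fatty acid elongase with daily variation, read 3.44, 3.23, 3.56 and 4.06 in transgenic livers, against 9.78, 4.99, 3.83 and 9.48 in control livers. Control replicates 1 and 4 were the high ones, and the log2 difference of -3.45 was not called (adjusted p = 0.0933).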
